A study of Mus musculus with 4 samples.

Results

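The Janus kinase genes and the STAT transcription factor genes of the mouse were followed in sorted bone marrow stromal cells. The set was a list of 9 genes chosen by family (Jak1, Jak2, Jak3, Tyk2, Stat2, Stat3, Stat4, Stat5a and Stat5b), among 19938 genes with a value. A gene was measured where a probe set carried its symbol alone, and of several such probe sets the brightest in the mean of the 4 arrays was used. This gave values for 8 of the 9 genes, each from 1 probe set. The probe set of Jak3 also carries the symbol Insl3, so Jak3 was not analysed here.

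The 4 C57BL/6 mice all carried Nes-gfp, a transgene in which the nestin promoter drives green fluorescent protein, and all had received a bone marrow transplant. The cells, taken 10 weeks later with 1 array per mouse, were those that lacked CD45, CD31 and Ter119 and shone with the reporter. The MPN group (myeloproliferative neoplasm, n = 3) had received cells with Mx1-cre and JAK2-V617F, the activating mutation of most such neoplasms, and the control group (n = 1) had received control cells. Mx1-cre places the recombinase under an interferon-inducible promoter, and the labels used here do not say how it was induced or which blood cells of the host remained. The labels write all alleles of an MPN sample as 1 genotype, while the design text places Mx1-cre and JAK2-V617F in the transplanted cells.

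Cytokine receptors of this family have no kinase of their own. Each holds a pair of Janus kinases (JAK1, JAK2, JAK3 or TYK2), which phosphorylate one another and the receptor when a ligand binds. STAT proteins dock there, are phosphorylated, pair up and enter the nucleus to activate genes, among them the SOCS genes whose products switch the signal off. JAK2 serves the receptors of erythropoietin, thrombopoietin and growth hormone, JAK1 the gp130 and interferon receptors, and TYK2 the type I interferon receptor. The arrays measure RNA, so they say nothing of phosphorylation or kinase activity.

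The values are log2 values made by the authors with RMA. A background limit of 5.21 was the 95th percentile of the means of 1192 olfactory and vomeronasal receptor genes, called odorant receptor genes below. The MPN minus control difference had a median of 0.18 over all genes and of 0.25 over the odorant receptor genes. Over the 11964 genes above the limit in a group it was 0.08, so the shift was not the same at all levels. Single differences are to be read against it, and the median gene below is that of all genes. One of the alternative scalings, called the odorant receptor scaling, moved the arrays until these genes had a common median. Across genes, Pearson's r with the control array was 0.813, 0.802 and 0.875 for MPN mice 1, 2 and 3, a description of arrays and not of independent replicates. The sort markers did not all follow the labels. Ptprc, which encodes CD45, had values of 10.16, 9.46 and 10.40 in MPN against 7.07, and Nes was under the background limit on all 4 arrays (4.56, 3.92 and 4.26 against 4.26). Pecam1, the gene of CD31, was at 5.36, 6.04 and 5.31 against 4.97.

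Jak2, the kinase whose mutant form the transplanted cells carried, did not separate the groups. It was at 6.42, 4.56 and 8.14 in MPN mice 1, 2 and 3 and at 8.06 in the control. The groups overlapped, with MPN mouse 3 level with the control, MPN mouse 1 lower, and MPN mouse 2 under the background limit. Since the lowest value has only a bound, the 3 MPN arrays spanned at least 7.62-fold, counting that value at the limit. Their SD was 1.79 as deposited and 1.47 with values under the limit set to it in every gene, a setting chosen after seeing the data, and the second was larger than that of 95.9% of the 11964 genes above background in a group. The mean difference was -1.68 (SE 1.59, limma's test, adjusted p = 0.619). Leaving out MPN mouse 2 gave -0.78, and leaving out MPN mouse 3 gave -2.56. Where on Jak2 the probes lie, and whether they bind RNA of the mutant allele, was not tested.

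Jak1, the partner kinase of the gp130 and interferon receptors, was at 7.21, 7.60 and 8.91 in MPN and 9.24 in the control. All 3 MPN arrays were lower, at differences of -2.02 and -1.64 for mice 1 and 2 and -0.33 for mouse 3. The mean difference was -1.33 (SE 0.80) and did not pass limma's test (adjusted p = 0.492). Without MPN mouse 3 it was -1.83 with an unadjusted p of 0.0201 and an adjusted p of 0.259.

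Tyk2, the kinase of the type I interferon and interleukin 12 receptors, lay under the background limit on every array, at 4.70, 4.59 and 4.45 in MPN and 4.12 in the control. All 3 MPN values were higher, by 0.47 in the mean (SE 0.18, limma's adjusted p = 0.431), or 0.29 more than the median gene. At this level a difference depends on where background lies.

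**Figure D1:**
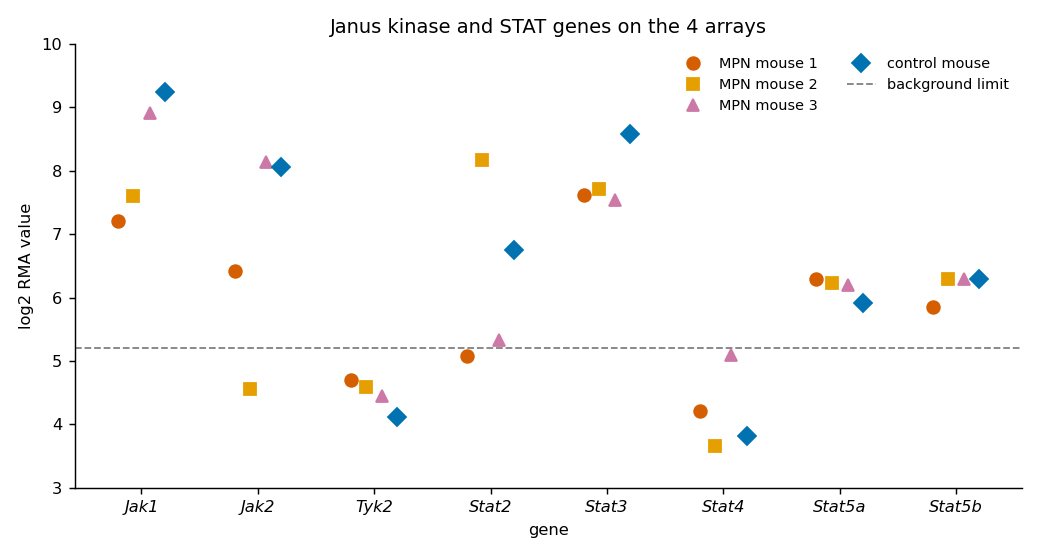
Deposited log2 RMA values (vertical axis) of 8 Janus kinase and STAT genes (horizontal axis), 1 symbol per mouse, with the background limit of 5.21 as a dashed line. The MPN symbols of Jak2 and Stat2 lie far apart, on both sides of the control, while those of Stat3 cluster between 7.53 and 7.71 below the control at 8.58.

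Stat3, the factor that gp130 cytokines such as interleukin 6 and leukaemia inhibitory factor activate, had the smallest unadjusted p of the family with the deposited scaling and 4 arrays. It was at 7.62, 7.71 and 7.53 in MPN and 8.58 in the control. All 3 MPN arrays were lower, at differences of -1.04 to -0.87, while they differed among themselves by 0.18. The mean difference of -0.96 (SE 0.16), 1.94-fold lower, had an unadjusted p of 0.00725 and did not pass after adjustment over all genes (limma, adjusted p = 0.187). An exact permutation test over the 4 arrays (two-sided) gave p = 0.25, the smallest that 3 arrays against 1 allow. Leaving out 1 MPN mouse at a time gave differences of -1.001 to -0.911. Over all 10 alternative settings it ran from -1.21 to -0.82, with an adjusted p of 0.0812 to 0.525. With a variance trend and robust prior its SE was 0.56 and its unadjusted p 0.156 (limma, adjusted p = 0.471), and Tyk2 then had the smallest p of the family.

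Stat5a and Stat5b are near-identical factors that JAK2 activates downstream of the erythropoietin, thrombopoietin and growth hormone receptors. Stat5a was at 6.29, 6.22 and 6.20 in MPN and 5.91 in the control, 3 tightly grouped values above it. The difference was 0.32 (SE 0.15, limma's adjusted p = 0.447), of which 0.15 was beyond the shift of the median gene, and it was 0.07 with the odorant receptor scaling. Stat5b was at 5.85, 6.29 and 6.30 in MPN and 6.30 in the control. No MPN value was above the control: mouse 1 differed by -0.45 and mouse 2 by -0.014, and mouse 3 held the control's own value. The mean difference was -0.16 (SE 0.27, adjusted p = 0.78 with limma), or 0.0047 after repeated quantile normalisation. In the mouse assembly GRCm38.p6, Stat5b, Stat5a and Stat3 lie next to one another, so these neighbours include the member with the steadiest lower value and one with a slightly higher value.

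Stat2, which joins with IRF9 to carry the type I interferon signal, was at 5.08, 8.17 and 5.34 in MPN and 6.75 in the control. Mouse 2 was above the control by 1.42, and mice 1 and 3 were below it, at differences of -1.67 and -1.41. Mouse 1 was under the background limit and mouse 3 just above it, so within MPN the values spanned at least 7.79-fold. The SD of 1.71, or 1.67 with values under the limit set to it, exceeded in the second case that of 97.4% of genes above background. The mean difference of -0.55 (SE 1.53, limma's adjusted p = 0.861) was within this spread. It was -1.54 without MPN mouse 2 (unadjusted p = 0.0182, adjusted p = 0.465) and 0.0057 without MPN mouse 1. Stat2 and Jak2 were the most variable of the 8 genes with or without the limit, and MPN mouse 2 was the highest array for Stat2 and the lowest for Jak2.

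The promoter of Stat2 holds a pair of GAAA in a row with any 2 bases between, the core of the element that the STAT2 and IRF9 complex binds. Both strands were searched. Of 32851 RefSeq promoters of 300 bases (250 before a gene's start and 50 after, GRCm38.p6), 3.44% held it. All 8 measured genes had a promoter in the set, 11 in all, and 2 held the letters, 1 of Stat2 and 1 of Stat4. The windows below show Stat2 beside Ifit1 and Ifit3, interferon-induced genes whose values are given further on. Each is 60 bases long and lies before the start, 5′ to 3′ on the gene's strand. Counted from the start, they run from -247 to -188 (Stat2), -120 to -61 (Ifit1) and -164 to -105 (Ifit3). Matches are in capitals, which here show the reverse complement, TTTC with 2 bases between.
Stat2, chr10:128270251-128270310, plus strand: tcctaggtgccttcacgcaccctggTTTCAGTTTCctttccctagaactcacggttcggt
Ifit1, chr19:34640769-34640828, plus strand: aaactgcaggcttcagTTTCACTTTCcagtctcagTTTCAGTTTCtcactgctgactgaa
Ifit3, chr19:34583365-34583424, plus strand: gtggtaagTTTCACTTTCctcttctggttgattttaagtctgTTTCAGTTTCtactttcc
Stat2 has 1 match and the windows of Ifit1 and Ifit3 have 2 each. A match describes letters in a sequence and does not show that a factor binds there.

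Stat4, the factor of interleukin 12 signalling in lymphocytes, lay under the background limit on all 4 arrays, at 4.21, 3.67 and 5.09 in MPN and 3.82 in the control. The groups overlapped (difference 0.50, SE 0.66, limma's adjusted p = 0.707). Stat6, the interleukin 4 factor, is outside the list and was chosen after its values were seen. It was at 6.27, 6.36 and 6.56 in MPN against 6.51, again with overlap.

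In limma's test, 0 of the 8 genes had an adjusted p under 0.05, as did 0.0% of the 19938 genes. Stat3 alone had an unadjusted p under 0.05, 1 of 8 genes, where 12.6% of all genes did, 3.97% higher and 8.63% lower in MPN. Over the other settings the count of members at that unadjusted level was 0 to 2. None of the 8 was 2-fold apart from the control on each MPN array, as 1.13% of all genes were upward and 5.78% downward. Without MPN mouse 3, Jak1 and Jak2 were 2-fold lower on both remaining arrays. Stat2 was so without MPN mouse 2, and Stat3 on all 3 arrays with the odorant receptor scaling. The shares over all genes are for the deposited scaling with 4 arrays, so calls under other settings have no share beside them. Jak1 and Stat3 had each MPN array below the control, where 21.1% of all genes did. Tyk2 and Stat5a had each MPN array above it, where 46.8% did. The median difference of the 8 genes was -0.35, against 0.18 over all genes.

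**Figure D2:**
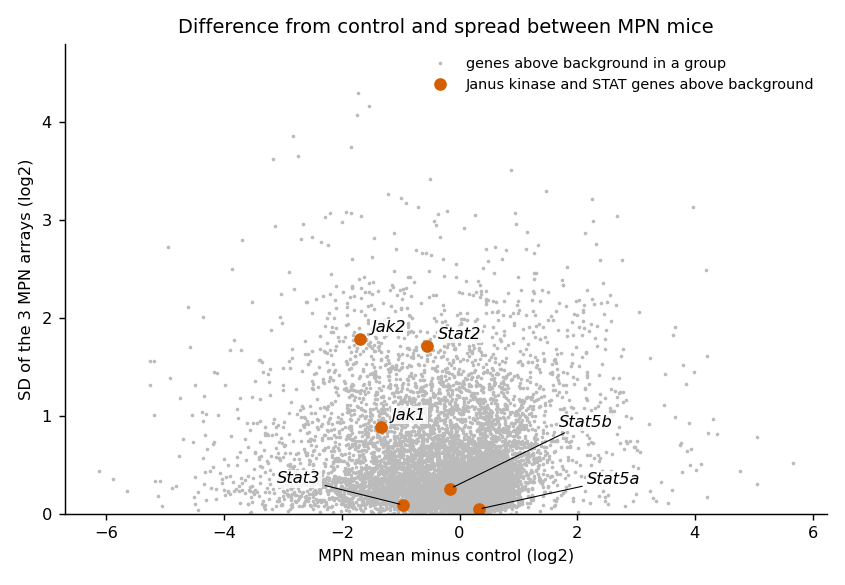
Difference of the MPN mean from the control (horizontal axis, log2) against the SD of the 3 MPN arrays (vertical axis, log2) for 11964 genes above background in a group (grey points), with the 6 Janus kinase and STAT genes among them in orange. Jak2 and Stat2 sit high, at an SD of 1.79 and 1.71 (each with 1 MPN value under the background limit), and Stat3 sits low, at 0.09, to the left of 0.

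Jak2, Stat2 and Jak1 had an SD between MPN mice of 1.79, 1.71 and 0.89 as deposited, against a median of 0.29 over genes above background. Stat5b, Stat3 and Stat5a had an SD of 0.26, 0.09 and 0.05, so that 44.4%, 8.77% and 3.66% of those genes had a smaller one. MPN mouse 3 was the MPN array nearest the control in 6 of the 8 genes, and in 52% of all genes. It was also the array with the highest correlation with the control, at 0.875.

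The genes with the most similar profile were found for each member whose 4 values ranged over at least 1 on the log2 scale. Likeness was the Euclidean distance between the 4 log2 values, each gene centred on its own mean, over genes above background in a group. The genes nearest Jak1 were Ntan1, Ghitm and Zbtb44, at distances of 0.08, 0.15 and 0.19. Those nearest Jak2 were Rsbn1, Cnot1 and Senp6, at 0.25, 0.33 and 0.35. Cnot1, a scaffold of the deadenylase complex, was at 8.74, 6.44 and 10.32 in MPN and 10.06 in the control, the same order of arrays as Jak2. Nearest Stat2 were Glo1, Nhlrc3 and Ap1s2 (0.37, 0.60 and 0.64), nearest Stat3 were Gfm2, Ikzf2 and Nr1d2 (0.04, 0.05 and 0.05), and nearest Stat4 were Plk4, Klhl2 and Rnf213 (0.08, 0.11 and 0.12). With 4 arrays and 11964 genes, near matches are common, so the distances are a description only.

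The other genes of the pathway were read from 7 lists by role, 95 genes of which 89 were measured. At an unadjusted p under 0.05, 4 were higher and 18 lower in MPN, where 3.97% and 8.63% of all genes were. The counts given for single lists below, with the deposited scaling and 4 arrays, are to be read against the same shares. Counts under other settings have no such share. With limma, 0 of the 89 genes passed the adjusted threshold. The median difference of the 89 genes was 0.04, against 0.18 over all genes. Genes 2-fold apart on each MPN array numbered 3 upward and 16 downward, against 1.13% and 5.78% of all genes. Of those upward, Csf3r and Osm had a control value under the background limit. Il6ra (difference 0.52, SE 0.14), Socs5 (-0.87, SE 0.17), Sh2b3 (-0.54, SE 0.17), Il10rb, Ifnlr1, Ccnd2, Cebpd and Oas2 are named outside the naming rule, chosen after their values were seen. Repeated quantile normalisation left the median of all genes at 0.18, cyclic loess moved it to 0.01, and the odorant receptor scaling moved it to -0.08.

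Of the list of gp130 and related receptor genes, which also holds chains of the interleukin 12 receptor, 12 of 13 were measured. At an unadjusted p under 0.05, 2 were higher (Il6ra and Csf3r) and 3 lower (Lifr, Osmr and Lepr). Lifr, which binds leukaemia inhibitory factor, was at 4.42, 5.14 and 7.42 in MPN and 10.92 in the control. Lepr, the leptin receptor of perivascular stromal cells, was at 6.85, 5.81 and 7.17 against 10.80. Every MPN value of both genes was at least 2-fold lower, and neither passed limma's adjusted threshold (adjusted p = 0.316 and 0.168). Il6st, gp130 itself, was at 5.60, 7.38 and 7.73 against 9.76, also lower on each array (difference -2.86, SE 1.03). Osmr, the oncostatin M receptor, had 6.01, 4.18 and 5.34 against 8.62. Csf3r, the granulocyte colony-stimulating factor receptor, went the other way at 6.04, 5.93 and 6.62 against 4.84 (difference 1.35, SE 0.36, limma's adjusted p = 0.317). The control value of Csf3r was under the background limit, so the size of its difference has only a bound. The median of the list was 0.04.

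The receptors that use JAK2 alone or the common beta chain gave 7 measured genes of 9, with 1 higher and 1 lower at an unadjusted p under 0.05. Ghr, the growth hormone receptor, was at 4.85, 4.39 and 4.40 in MPN and 9.44 in the control. Its MPN values all lay under the background limit, so it was at least 18.8-fold lower, and the fitted difference of -4.89 (SE 0.27) had an adjusted p of 0.0871 with limma. It passed after cyclic loess (adjusted p = 0.048), with the odorant receptor scaling (adjusted p = 0.0464) and with a variance trend and robust prior (adjusted p = 0.0288). Csf2ra, the alpha chain of the granulocyte-macrophage colony-stimulating factor receptor, was at 8.12, 8.22 and 7.69 against 6.19. Those 3 values were all higher (difference 1.81, SE 0.29, limma's adjusted p = 0.172). Csf2rb, the common beta chain, was at 7.09, 5.61 and 6.09 against 5.33, and its mouse-specific copy Csf2rb2 at 5.46, 4.97 and 5.23 against 4.49. Probes of these 2 near-identical genes may bind the RNA of both, which was not tested. Epor, the erythropoietin receptor, was at 5.79, 5.86 and 5.41 against 5.18, a difference of 0.51 (SE 0.26, adjusted p = 0.461 with limma).

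The list of common gamma chain and related receptors holds receptors that pair JAK1 with JAK3 and also Crlf2 and Il13ra1, which use other kinases. In it, 9 of 10 genes were measured, 5 of them above background in a group, and 0 had an unadjusted p under 0.05 (2 without MPN mouse 3). The differences ran from -0.04 to 0.67. Il9r, Crlf2, Il21r and Il15ra differed by 0.47, 0.44, 0.34 and 0.21, and that of Il15ra was -0.05 with the odorant receptor scaling.

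The receptors of interferons and interleukin 10, which use JAK1 with JAK2 or TYK2, were a list of 10 genes, all measured, and 0 had an unadjusted p under 0.05 with the deposited scaling and 4 arrays. Without MPN mouse 3 the count was 2, with Ifnar2 at a difference of -2.24 (unadjusted p = 0.00609) and Ifnar1 at -1.09 (unadjusted p = 0.0177), both with a limma adjusted p of 0.259. Ifnar1 also had an unadjusted p of 0.0454 with the odorant receptor scaling and of 0.0388 with a variance trend and robust prior. Ifngr1, the ligand-binding chain for interferon gamma, was at 8.08, 5.13 and 9.03 in MPN and 9.32 in the control. As for Jak2, MPN mouse 2 was the lowest, under the background limit, and MPN mouse 3 the nearest to the control. Ifnar2, a chain of the type I interferon receptor, was at 7.19, 7.41 and 9.23 against 9.54, in the same order as Jak1. Ifngr2 was at 5.63, 7.13 and 8.37 against 8.12, and Ifnar1 at 5.10, 4.94 and 5.57 against 6.11. The differences of the 4 genes were -1.90 (SE 1.81), -1.60 (SE 1.01), -1.08 (SE 1.23) and -0.91 (SE 0.32). Il10rb, the chain that the interleukin 10 and interferon lambda receptors share, ran in another order, at 8.57, 6.08 and 4.55 against 5.66, with MPN values on both sides of the control. As deposited, the SD of the MPN arrays was 0.32 in Ifnar1 and 0.35 in Ifnlr1, against 2.04 in Ifngr1 and 2.03 in Il10rb. Ifnar1 was under the background limit in MPN mice 1 and 2, Ifngr1 in mouse 2 and Il10rb in mouse 3. Ifnlr1 was near the limit, at 5.93, 5.48 and 5.24 in MPN. Values under the limit have only a bound, and no SD with the limit is given for these genes.

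**Figure D3:**
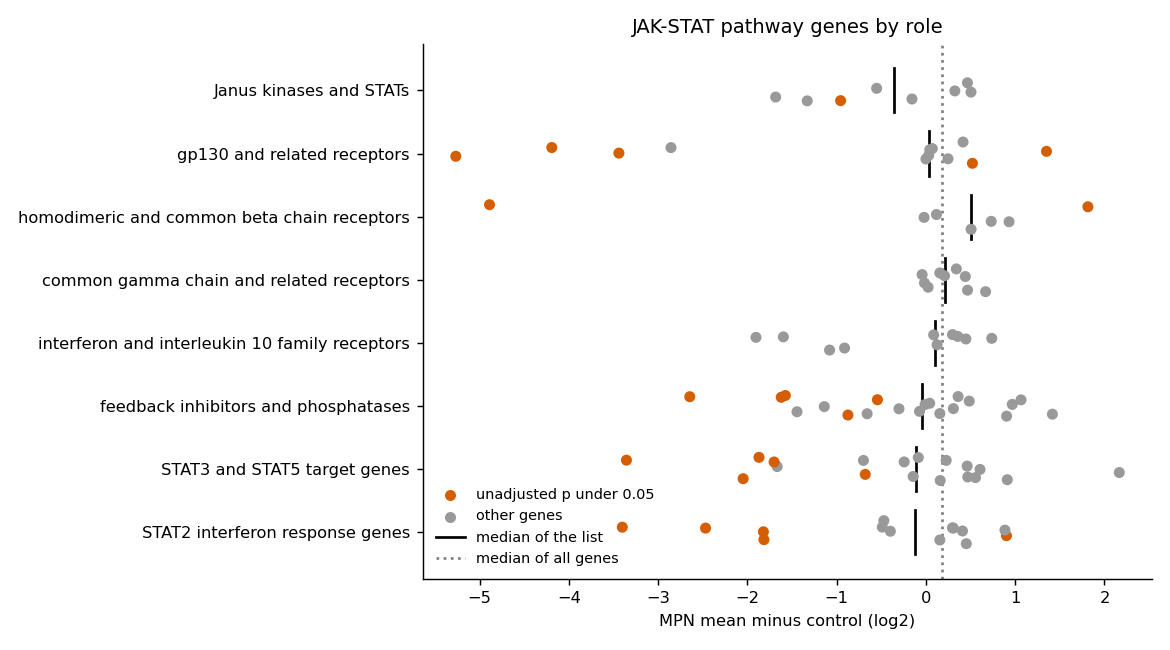
Difference of the MPN mean from the control (horizontal axis, log2) for each measured gene of the pathway, 1 row per role. Orange points had an unadjusted p under 0.05 with limma, black bars are the median of a list and the dotted line is the median of all genes at 0.18. The list of 20 inhibitors and the target lists have points on both sides of 0, while the points beyond -3 are receptors, Igf1 and Ifit3.

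Inhibitors of the pathway were all measured (20 of 20), and at an unadjusted p under 0.05, 0 were higher and 5 lower (Socs2, Socs5, Pias1, Sh2b3 and Cblb). Socs2, which restrains growth hormone and STAT5 signalling, was at 5.75, 5.86 and 5.93 in MPN and 7.47 in the control. The 3 MPN values lay within 0.18 of one another and well below the control (difference -1.62, SE 0.17, limma's adjusted p = 0.109). Pias1, a SUMO ligase that binds activated STATs, was at 5.16, 4.98 and 6.20 against 8.09, and Cblb, a ubiquitin ligase, at 6.93, 7.15 and 6.86 against 8.55. Pias2 was at 4.68, 6.88 and 5.08 against 6.99, with 1 MPN mouse near the control. The feedback genes Cish, Socs1 and Socs3 did not reach an unadjusted p under 0.05. Cish was at 5.44 on each MPN array and 5.08 in the control. Socs1 was at 6.73, 6.36 and 6.03 against 5.47, and Socs3 at 5.92, 6.45 and 6.41 against 6.56. The median of the list was -0.04.

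Windows of the Socs1 and Socs3 promoters are shown because these genes are the standard readouts of STAT activity. Socs3 holds TTCNNNGAA, the palindromic core that STAT dimers bind (the same on both strands), which 8.30% of all promoters and 0 of the 11 promoters of the 8 measured genes held. It is not particular to Socs3: 12 of 82 promoters of measured pathway genes outside the family held it, those of Socs3, Cish and Bcl6 among them. These 82 promoters belong to 66 of the 89 measured genes. Socs1 holds the element described for Stat2 in 2 overlapping matches, and its promoter is among the 8 of those 82 that held it. Capitals mark the matches.
Socs1, chr16:10785582-10785641, minus strand: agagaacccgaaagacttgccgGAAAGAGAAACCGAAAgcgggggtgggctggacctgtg
Socs3, chr11:117969487-117969546, minus strand: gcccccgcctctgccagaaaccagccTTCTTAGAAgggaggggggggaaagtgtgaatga
Socs1 differed by 0.90 (SE 0.34, limma's adjusted p = 0.422) and Socs3 by -0.30 (SE 0.30, limma's adjusted p = 0.635), so neither passed.

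Genes known as targets of STAT3 and STAT5 went both ways. All 18 were measured, and at an unadjusted p under 0.05, 0 were higher and 5 lower (Ccnd1, Ccnd2, Igf1, Hif1a and Cebpd, the differences of Ccnd2 and Cebpd being -1.70 and -0.68). Igf1, the growth factor that growth hormone induces through STAT5, was at 4.99, 4.89 and 4.79 in MPN and 8.25 in the control. All MPN values were under the background limit, so it was at least 8.23-fold lower, with a fitted difference of -3.35 (SE 0.17) and an adjusted p of 0.0871 with limma. It passed after cyclic loess (adjusted p = 0.048), with the odorant receptor scaling (adjusted p = 0.0464) and with a variance trend and robust prior (adjusted p = 0.0304). Ccnd1, cyclin D1, was at 5.77, 5.54 and 5.82 against 7.58, and Hif1a, the hypoxia factor, at 5.83, 6.05 and 7.05 against 8.36. Osm, a cytokine gene induced by STAT5 in blood cells, was higher on each MPN array at 5.88, 8.20 and 6.94 against 4.84 (difference 2.17, SE 1.04, limma's adjusted p = 0.45). The control value of Osm was under the background limit, so the size of its difference has only a bound. Pim1, another standard target, was at 5.90, 5.95 and 6.09 against 5.75, a difference of 0.23 that was -0.03 with the odorant receptor scaling.

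Interferon response genes, the targets of STAT2 with IRF9, were measured for 14 of 16, with 1 higher (Oas2, by 0.90) and 4 lower at an unadjusted p under 0.05. The 4 were Ifit1, Ifit3, Ifih1 and Ddx58. Ifit3, whose promoter is shown above, was at 4.28, 3.59 and 4.69 in MPN and 7.59 in the control, and Ifit1 at 4.47, 4.36 and 4.45 against 6.24. Both were under the background limit on every MPN array. Their differences were at least 2.05-fold for Ifit1 and 5.22-fold for Ifit3, with MPN taken at the limit. Ifih1, a sensor of viral RNA, was also under the limit on every MPN array, at 4.68, 5.09 and 5.08 against 7.42, and so at least 4.64-fold lower (limma's adjusted p = 0.111). Ddx58, another such sensor, was at 5.48, 5.39 and 5.35 against 7.23, a difference of -1.82 (SE 0.16, limma's adjusted p = 0.0904). Irf9 itself was at 5.37, 5.37 and 5.08 against 5.75. Stat2 itself was lower than the control in MPN mice 1 and 3 and higher, by 1.42, in MPN mouse 2.

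Markers of other cells differed on the same arrays. The mean log2 value of 15 leukocyte markers was 9.09, 8.54 and 9.32 in MPN against 6.68 in the control, with 14 of the 15 higher on each MPN array. Over 17 neutrophil markers it was 10.26, 9.46 and 10.57 against 7.18. Over 16 stromal markers it was 6.26, 5.73 and 6.46 against 9.60, and 15 of the 16 were lower on each MPN array; Cxcl12, the chemokine of marrow stroma, was at 9.65, 8.39 and 8.75 against 11.42. The mean was 4.91, 5.02 and 4.75 against 4.42 for 14 T and natural killer cell markers, and 4.94, 5.60 and 4.68 against 5.09 for 11 B cell markers. For 9 erythroid, 8 megakaryocyte and 14 endothelial markers the MPN means ran from 5.37 to 5.75, 5.70 to 6.51 and 5.01 to 5.30, against 5.18, 5.19 and 4.77. MPN mouse 2, lowest for Jak2 and highest for Stat2, had the lowest leukocyte, neutrophil and stromal means of the 3 MPN arrays and the highest B cell, erythroid, megakaryocyte and T and natural killer cell means. The part of cell content in the values of Jak1, Jak2, Stat3 and the receptors was not tested. In sorted bulk cells, fewer cells of a type and less RNA per cell cannot be told apart.

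**Figure D4:**
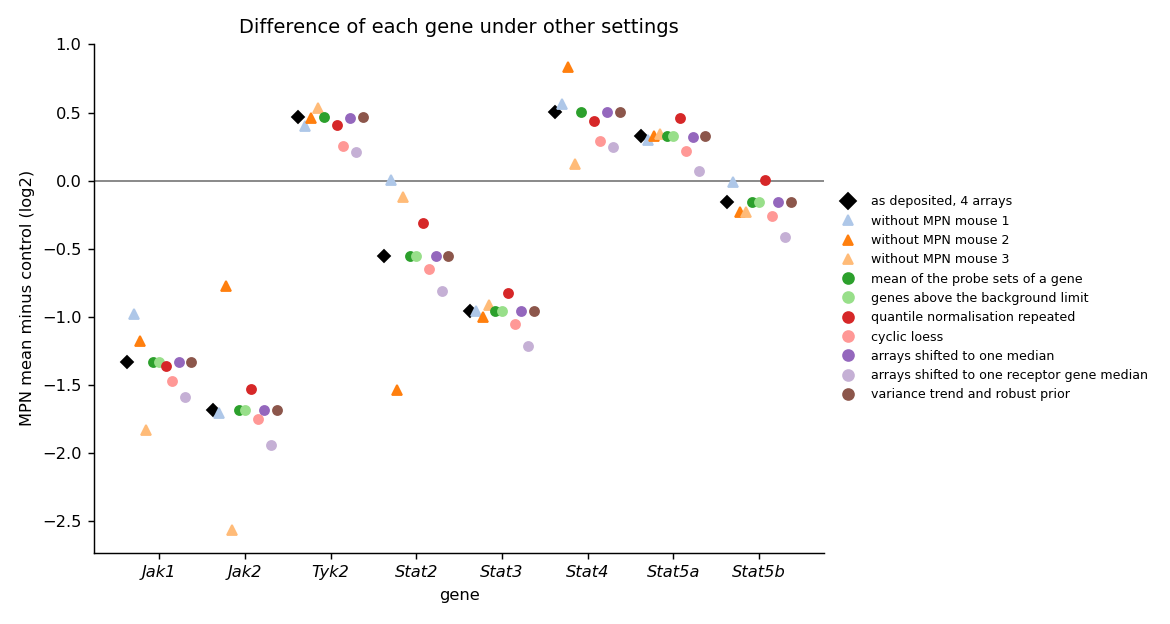
Difference of the MPN mean from the control (vertical axis, log2) for each of the 8 genes under the deposited scaling with 4 arrays (black diamonds), without each MPN mouse in turn (triangles) and under other settings (circles). The points of Stat3 stay between -1.21 and -0.82, whereas those of Jak2 run from -2.56 to -0.78 and those of Stat2 from -1.54 to 0.01.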

How the data were processed

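RNA of the sorted cells was prepared with a Picopure kit and amplified with NuGEN Ovation, and biotin-labelled cDNA was hybridised to Affymetrix MoGene 1.0 ST arrays, per the labels' protocols and the design. The deposited log2 values were made by the authors with RMA, per the submitters' processing notes. RMA removes background, equalises the distributions of the arrays and summarises each probe set, which compresses differences near background. For its version and for the genome build, the sources used here give nothing. Precision is limited by the number of arrays, since arrays have no depth.

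Of 35556 probe sets, 21789 have 1 symbol in the platform annotation, 1621 several and 12146 none listed. By gene identifier, 21698 matched RefSeq (GRCm38.p6) and 0 symbols changed. MPN was set against control with limma 3.58.1 (R 4.3.3; lmFit and eBayes), two-sided, and p-values were adjusted by Benjamini-Hochberg over all 19938 genes. Residual degrees of freedom number 2 and come from the MPN mice, with a prior of 1.39. The fit assumes that the single control varies as they do. The titles call each sample a mouse. SE is from this fit. In 134 genes the MPN values were identical, and limma offset their variance.

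Members and lists were chosen with earlier results of these data known. No set test was run. Named genes are the members, up to 4 genes per pathway list with the largest difference above background, the 3 nearest profiles of a member whose range is at least 1, and 16 genes of the sort, niche and pathway; those without a value are not reported here. On simulated data for this comparison over 19938 genes, 28.4% of log2 changes of 2, 86.6% of 4 and 95.5% of 6 were recovered. There were 6 false calls. The simulated noise of a gene used its variance as already moderated by limma's prior, so the spread of variances differed from that of the data. Recovery on the real arrays may differ too: Ghr, at a fitted difference of -4.89, did not pass with the deposited scaling. Alternatives left out each MPN mouse, averaged probe sets, removed dim genes, rescaled the arrays or changed the variance prior. An alternative for the spread between MPN mice, added after seeing the data, set values under the background limit to it.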

Additional observations from a re-analysis of the deposited data

How the results depend on the processing

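Of the 8 members, 0 passed the adjusted threshold under any of the 10 alternatives, and the differences of Jak1, Jak2, Tyk2, Stat3, Stat4 and Stat5a kept their sign in all that gave a value. Tyk2 and Stat4 gave none among genes above background. Averaging probe sets, removing dim genes and changing the variance prior returned the deposited difference of each member that had a value. Only the other settings could change a sign. Stat2 ran from -1.54 to 0.0057 when a mouse was left out, changing sign without MPN mouse 1, and Stat5b changed sign to 0.0047 after repeated quantile normalisation. Over all genes, calls numbered 97 with cyclic loess, 153 with the odorant receptor scaling and 167 with a variance trend and robust prior. The count of members 2-fold apart was 0 to 2 when a mouse was left out and 1 with the odorant receptor scaling. The count of members at an unadjusted p under 0.05 was 1 to 2 when a mouse was left out and 0 with the variance trend. The cause of these changes was not tested.

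List medians depended on the scaling. With the odorant receptor scaling they were -0.22 for gp130 receptors, 0.25 for homodimeric and common beta chain receptors, -0.049 for common gamma chain receptors, -0.15 for interferon receptors, -0.30 for inhibitors and -0.38 for interferon response genes. After cyclic loess they were -0.15 for gp130 receptors, 0.047 for common gamma chain receptors, -0.020 for interferon receptors, -0.23 for inhibitors and -0.32 for interferon response genes. Among genes above background they were 0.34 for common gamma chain receptors, -0.39 for interferon receptors, -0.19 for inhibitors and -0.49 for interferon response genes. When a mouse was left out, the medians ran from -0.20 to 0.18 for interferon receptors, -0.19 to -0.074 for inhibitors and -0.29 to -0.026 for interferon response genes. Of single genes outside the family, Il15ra was at -0.049 and Pim1 at -0.030 with the odorant receptor scaling, and Nes ran from -0.17 to 0.15 when a mouse was left out. No paired analysis was possible because the lone control mouse carries no number in the labels.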

Other observations

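Stat5b held the same deposited value, 6.30, on the arrays of MPN mouse 3 and the control mouse. Such ties were common: 2526 of 19938 genes (12.7%) had an equal value on at least 2 arrays, and 576 of them were equal between those 2 arrays. Among the 97 measured genes of the pathway, members included, 14 had a tie. Cish was equal on all 3 MPN arrays, so its MPN SD of 0.0 is no measure of how much the mice differed.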
